A study of Mus musculus with 6 samples.

Results

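The genes described here are the transcriptional feedback arm of the ERK pathway: the phosphatase genes Dusp4 and Dusp6, the Sprouty genes Spry1, Spry2 and Spry4, the Spred genes Spred1, Spred2 and Spred3, and the transcription factor genes Etv4 and Etv5. Members were all probe sets whose single gene symbol in the array annotation is 1 of these names, which gave 28 of 45037 probe sets, for 10 genes among 12684 tested. The cells were J1 mouse embryonic stem cells, an established line, grown on gelatin without feeder cells named in the labels, in 15% serum and 1000 U/ml of leukemia inhibitory factor (LIF). All groups carried a pLKO.1 lentivirus and had been selected with puromycin at 1.5 ug/ml for 2 days and cultured for 4 more days after replating. In 2 groups the virus encoded a hairpin against Jmjd1c, a gene of the JmjC histone demethylase family: shJmjd1c#3 (sh3) and shJmjd1c#4 (sh4), labelled Jmjd1c knockdown. In the control group it encoded the non-targeting hairpin shNT, with the genotype labelled wild type. Each group had 2 Affymetrix Mouse Genome 430 2.0 arrays, labelled biological replicates 1 and 2, and no clone is named in the labels. Separate cultures are not described, so p-values measure the spread between these arrays.

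ERK is the last kinase of a cascade in which fibroblast growth factor receptors activate RAS, RAF and MEK. In mouse embryonic stem cells Fgf4 feeds this cascade, which is known for moving cells away from the naive state. ERK activity induces its own inhibitors, so transcripts of Dusp, Sprouty and Spred genes, and of the ETS factors Etv4 and Etv5, are widely read as a record of signalling.

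The RefSeq table of promoters (GRCm38.p6) held 8 windows for 7 of the 10 genes (Etv5 had 2). The 250 bases before the start are printed for Dusp6, Spred3 and Spred1, the genes with the clearest differences below, and for Spred2, the Spred gene whose difference was near 0. They lie at chr10:99262981-99263230 on the plus strand (Dusp6), chr7:29168648-29168897 on the minus strand (Spred3), chr2:117120821-117121070 on the plus strand (Spred1) and chr11:19924192-19924441 on the plus strand (Spred2). Both strands were searched. Capitals mark CGGAA on either strand (TTCCG on the other), a form of the site bound by ETS factors such as Etv4 and Etv5. Its inner GGAA was not searched for by itself, so other ETS sites may be unmarked.
Dusp6: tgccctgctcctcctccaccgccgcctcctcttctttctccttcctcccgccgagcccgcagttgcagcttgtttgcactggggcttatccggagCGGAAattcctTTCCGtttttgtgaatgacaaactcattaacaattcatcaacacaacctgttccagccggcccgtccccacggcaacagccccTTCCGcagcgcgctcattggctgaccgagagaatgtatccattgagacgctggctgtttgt
Spred3: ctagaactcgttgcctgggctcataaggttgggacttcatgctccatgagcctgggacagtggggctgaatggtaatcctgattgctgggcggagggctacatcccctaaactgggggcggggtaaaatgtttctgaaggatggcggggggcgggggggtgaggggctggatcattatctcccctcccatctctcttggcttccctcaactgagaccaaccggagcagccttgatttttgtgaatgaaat
Spred1: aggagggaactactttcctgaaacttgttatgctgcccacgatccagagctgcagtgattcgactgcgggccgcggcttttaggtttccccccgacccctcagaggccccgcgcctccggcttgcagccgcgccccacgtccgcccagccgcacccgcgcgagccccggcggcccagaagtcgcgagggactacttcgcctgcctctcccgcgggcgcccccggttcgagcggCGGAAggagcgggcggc
Spred2: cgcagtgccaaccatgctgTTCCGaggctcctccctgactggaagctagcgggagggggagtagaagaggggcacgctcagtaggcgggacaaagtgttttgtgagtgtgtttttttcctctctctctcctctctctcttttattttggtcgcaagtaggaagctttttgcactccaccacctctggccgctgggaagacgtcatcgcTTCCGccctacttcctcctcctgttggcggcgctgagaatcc
Dusp6 had 3 CGGAA matches, Spred2 had 2, Spred1 had 1 and Spred3 had 0. In all, 3 of the 8 member windows held CGGAA, beside 25.2% of the 32851 windows in the table. The longer form CCGGAA, which contains it, was in 0 of 8, beside 12%. The AP-1 site TGANTCA (6.75% of all windows), the cAMP response element TGACGTCA (1.55%) and the TATA box TATAAA (12.4%) were also in 0 of 8. The GC box GGGCGG was in 5 of 8 windows, beside 32.7% of all, with 3 copies in Spred3, 2 in Spred1, 1 in Spred2 and 0 in Dusp6. The motifs were chosen after the windows were read, and 2 of the 8 windows are of Etv5, so these shares are no test of enrichment. The matches describe the windows and are not binding sites.

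The arrays had median signals of 69.2 to 81.0. All 12 embryonic stem cell markers were above the filter on dim probe sets. Pou5f1 read 9964 and 9281 in sh3, 10932 and 9797 in sh4, against 9069 and 11587 in shNT, so its groups overlapped. Pou5f1 does not stand for the list, as 11 of the 12 markers had negative differences, with a median log2 of -0.32. The brightest Jmjd1c probe set (1426900_at) was lower in each knockdown array than in shNT (log2 -0.46 with SE 0.13 and adjusted p = 0.358 by limma), while 1448049_at and 1439998_at were higher in all 4 (log2 0.90 and 0.73, adjusted p = 0.117 and 0.439 by limma). The groups are therefore called knockdown by their labels. Of 3 control probe sets for 18S ribosomal RNA, 2 had all knockdown arrays below the shNT arrays, with log2 differences of -0.59 to -0.71 over the 3. The Actb probe set at the 3' end read 2.26 and 2.40 times that at the 5' end in sh3. The ratio was 2.80 and 2.81 in sh4 and 2.70 and 2.77 in shNT, so both sh3 arrays lay below all others. Its part in the differences was not tested.

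Dusp6 rose in knockdown cells. Spred3 also passed the threshold, but its shNT signals were below the filter on dim probe sets, so it was tested only through its knockdown arrays, and without the filter it did not pass (adjusted p = 0.0878 by limma). Spred1 and Etv4 were higher in all 4 knockdown arrays than in both controls and passed only when same-numbered samples were paired. Dusp4, Spry1, Spry2 and Spry4 had positive differences that overlapped the controls, and Spred2 and Etv5 were near 0. Values are log2(signal + 16) of each gene's brightest probe set, as the mean of sh3 and sh4 minus shNT, tested with limma over all 12684 genes. Of the 10 genes 2 passed as higher (Dusp6 and Spred3) and 0 as lower at an adjusted p under 0.05, beside 0.56% of all genes that rose and 0.725% called in either direction. Without the filter 1 passed (Dusp6). With the replicate number as a block 4 passed as higher, Spred3 again among them, beside 3.33% of all genes that rose and 5.6% called in either direction. An unadjusted p under 0.05 was reached by 4 of the 10, Spred3 among them, and by 12.3% of all genes. In 4 of 10 genes, again with Spred3, all knockdown arrays lay above both shNT arrays, beside 11.2% of all genes. In 0 of 10 all lay below, beside 9.54%. The median difference was 0.34, and 0.31 without Spred3, beside 0.01 for all genes tested. Of the 10, 8 were positive, Spred3 included, beside 51.7% of all genes. As Spred3 was tested only through its knockdown arrays, its part in these counts is no independent result. Markers of cell types were also read on the same arrays. Of 15 fibroblast (feeder cell) markers 14 were positive, with a summed signal of 3490 to 4385 in knockdown arrays, against 2811 to 2958 in shNT arrays. None was listed at 0, but Lum was below the filter signal of 40.1 on every array, and Col3a1, Dcn and Prrx1 were below it in both shNT arrays. Of 12 embryonic stem cell markers 11 were negative, with sums of 108561 to 123872 in knockdown and 128748 to 153755 in shNT arrays. The summed signal of 9 primitive endoderm markers was 918 and 808 in sh3 and 2013 and 1503 in sh4, against 889 and 696 in shNT. Both sh4 arrays were thus above both controls, and sh3 overlapped them. The median log2 difference of the 8 tested was 0.16 with sh3 and 1.09 with sh4, and 0 passed with either hairpin by limma. The ranges of the summed signal overlapped for 7 trophectoderm markers (6212 to 13369.9 and 5527 to 9259) and for 5 formative epiblast markers (16182 to 30525 and 8513 to 20620.4). All 5 formative markers were nonetheless positive, with a median log2 of 0.80 (0.88 with sh3 and 0.72 with sh4), and 0 passed by limma. Their replicate 1 sums were 30525 in sh3 and 30070.5 in sh4, against 20620.4 in shNT. For replicate 2 they were 19474 and 16182, against 8513. Fgf5 was below the filter signal in both shNT arrays. By limma 0 of the 12 stem cell markers passed. With the replicate block 7 fell, beside 5.6% of all genes called in either direction. Col3a1 and Cdx2 were the markers that passed as higher without the block (adjusted p = 0.0336 and 0.0361 by limma), and both were below the filter signal in both shNT arrays, so they entered the test through the knockdown arrays. With the block 2 of 12 tested fibroblast, 2 of 8 primitive endoderm, 3 of 5 trophectoderm and 4 of 5 formative markers rose. Beside these, 3.33% of all genes rose with the block. Of the 5 trophectoderm markers 1 fell. The part of these cells in the differences was not tested, and in bulk RNA fewer cells of a type and less RNA per cell cannot be told apart.

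**Figure D1:**
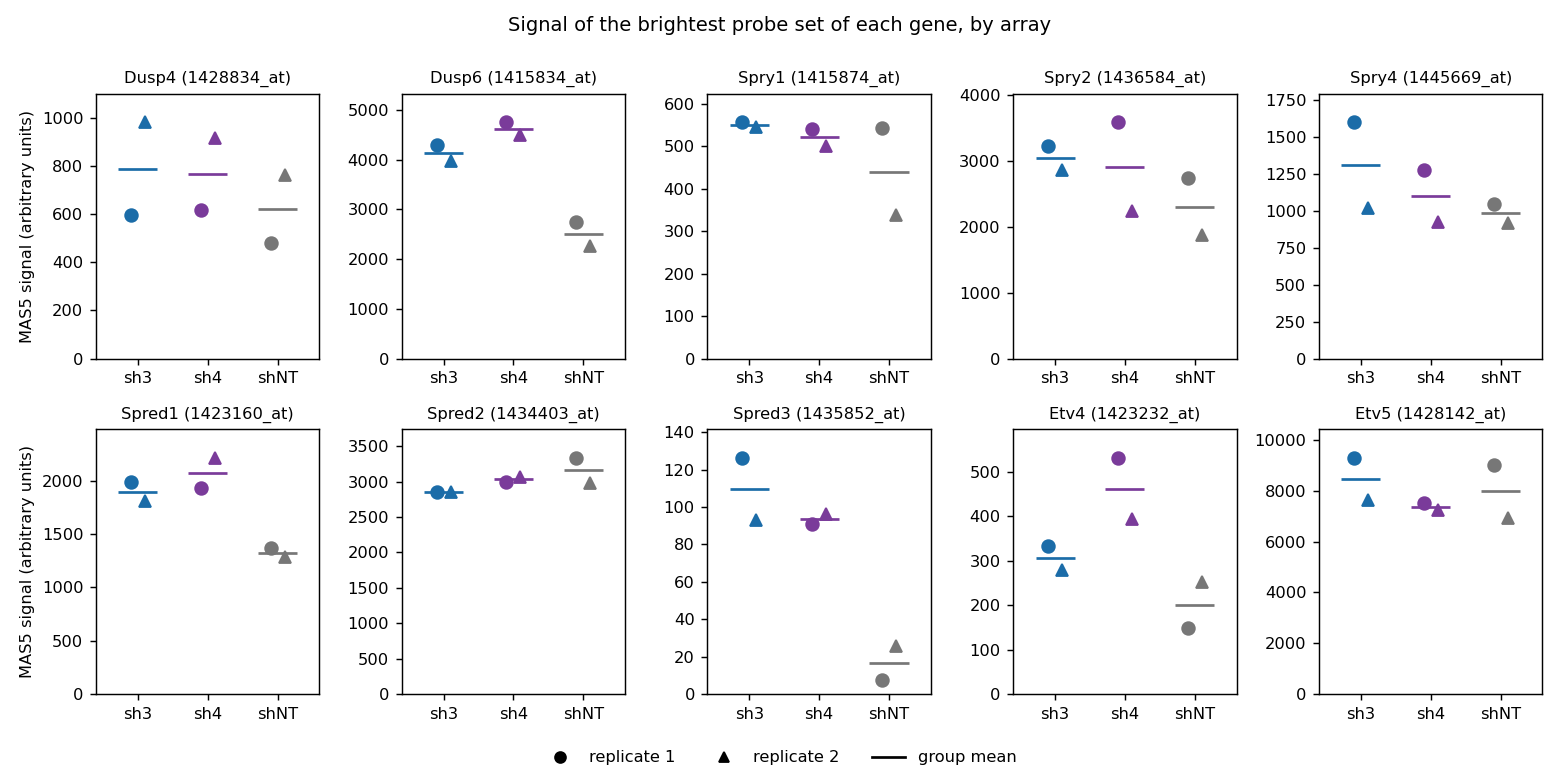
Deposited signal of the brightest probe set of each of the 10 genes (y axis, arbitrary units, starting at 0) on each array of sh3, sh4 and shNT. Circles are replicate 1, triangles replicate 2 and bars the mean of 2 arrays. Dusp6, Spred1, Spred3 and Etv4 have all 4 knockdown arrays above both shNT arrays, and the other 6 genes overlap.

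The phosphatases act directly on the kinase. Dusp6, a cytoplasmic phosphatase specific for ERK, read 4292 and 3986 in sh3 and 4753 and 4496 in sh4, against 2753 and 2269 in shNT. Every knockdown array was above both controls, the lowest by 1.45 times the higher control. The mean was 4382 ± 325 in knockdown and 2511 ± 342 in shNT (SD, n = 4 and 2), a ratio of 1.74. The log2 difference was 0.80 (SE 0.11, 95% interval 0.55 to 1.05, adjusted p = 0.0225 by limma; 0.000297 with the replicate block). Taken between same-numbered arrays, Dusp6 was higher by 0.64 and 0.81 with sh3 and by 0.78 and 0.98 with sh4. The call ended without shNT replicate 2 (log2 0.66, adjusted p = 0.111 by limma), sh3 replicate 1 (0.78, 0.0703), sh3 replicate 2 (0.83, 0.072) or sh4 replicate 1 (0.78, 0.0684), and without an intensity trend (0.80, 0.146).

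Dusp4, a nuclear phosphatase that acts on ERK and other MAP kinases, read 595 and 980.0 in sh3 and 617 and 914 in sh4, against 480.3 and 763 in shNT. Replicate 2 was the higher array in all 3 groups, by 0.71 in sh3, 0.56 in sh4 and 0.65 in shNT on the log2 scale, so the groups overlapped. Between same-numbered arrays the difference from shNT was 0.30 and 0.35 with sh3 and 0.35 and 0.26 with sh4. The mean difference was 0.31 (SE 0.26, adjusted p = 0.697 by limma), and with the block the SE was 0.12 and the adjusted p 0.147 by limma. Without shNT replicate 1 the difference was -0.01.

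The Sprouty genes encode membrane-recruited inhibitors that act between the receptor and RAF. Spry2 read 3234 and 2856 in sh3 and 3586 and 2233 in sh4, against 2738 and 1878 in shNT, and the groups overlapped. Its log2 difference was 0.37 (SE 0.20, 95% interval -0.09 to 0.83, adjusted p = 0.516 by limma), the nearest to the threshold of the 3 Sprouty genes with the block (adjusted p = 0.0693 by limma). The difference was 0.099 without shNT replicate 2, 0.64 without shNT replicate 1, 0.20 without sh4 replicate 1 and 0.085 as the mean of both probe sets. A second, dimmer Spry2 probe set (1421656_at) had the opposite sign, at -0.20 (SE 0.26). Spry1 read 557 and 546 in sh3 and 542 and 502 in sh4, against 543 and 337 in shNT. The 4 knockdown arrays and shNT replicate 1 were thus alike, and shNT replicate 2 alone was low. The difference of 0.31 (SE 0.19, adjusted p = 0.574 by limma) was -0.02 without that array and 0.64 without shNT replicate 1.

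Spry4 read 1596 and 1019 in sh3 and 1274 and 921 in sh4, against 1046 and 914 in shNT. Replicate 1 was the higher array in each group, and the groups overlapped (log2 0.26, SE 0.20, adjusted p = 0.668 by limma). The difference was 0.10 without sh3 replicate 1, 0.42 without sh3 replicate 2, 0.15 without sh4 replicate 1, 0.17 without shNT replicate 2 and 0.073 as the mean of its probe sets. Its 4 probe sets did not share a direction. All knockdown arrays lay above both controls at 1422021_at (log2 0.57, SE 0.25) and below both at 1440867_at (log2 -0.28, SE 0.20), with adjusted p of 0.583 and 0.759 by limma over all probe sets. The fourth, 1422020_at, was below the filter, with signals of 2.92 to 23.6 in knockdown and 7.10 to 34.5 in shNT arrays.

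The Spred genes, Sprouty-related, encode membrane proteins that keep RAS and RAF in check, and SPRED1 is known to bring the RAS inactivator neurofibromin to the membrane. Spred3, the family member whose protein is known to lack a working KIT-binding domain, read 126 and 93.0 in sh3 and 91.0 and 96.1 in sh4, against 7.31 and 25.5 in shNT. All knockdown arrays were above both controls, and both shNT signals were below the filter signal of 40.1. The lowest knockdown array was 2.27 times that filter signal, and no exact fold over shNT is given. The mean was 102 ± 16.6 in knockdown and 16.4 ± 12.9 in shNT (SD, n = 4 and 2), and the fitted difference of log2(signal + 16) was 1.91 (SE 0.33, 95% interval 1.15 to 2.66, adjusted p = 0.0447 by limma; 0.0083 with the replicate block). The size depended on the pseudocount, at 2.78 with 1 (adjusted p = 0.0607 by limma) and 1.05 with 64, and the knockdown mean was 2.53 times the filter signal, both ratios to the filter signal being chosen after the values were seen. The threshold was passed in 4 of 16 alternatives. The call ended without the filter (adjusted p = 0.0878 by limma), without an intensity trend (0.119), with quantile normalization (0.0573), with median centring (0.0542) and without cross-hybridizing probe sets (0.0516). It also ended without each of the 6 arrays in turn (log2 1.49 to 2.32, adjusted p = 0.0904 to 0.156 by limma), and the array held no second Spred3 probe set.

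Spred1 had 8 probe sets, the most of any member. The brightest, 1423160_at, read 1983 and 1807 in sh3 and 1930 and 2214 in sh4, against 1371 and 1279 in shNT. The next, 1423161_s_at, read 1379 and 1336 in sh3 and 1199.97 and 1288 in sh4, against 971 and 769 in shNT. The third, 1460116_s_at, read 564 and 442 in sh3 and 653 and 555 in sh4, against 388 and 302 in shNT. At these 3, and at 1452911_at, all knockdown arrays lay above both controls, and 7 of the 8 differences were positive. The 3 brightest differed by a log2 of 0.57, 0.58 and 0.65, with SE of 0.11, 0.13 and 0.18. Of these, 1423161_s_at and 1460116_s_at are of a kind that may cross-hybridize. The mean of all 8 probe sets differed by 0.39 (adjusted p = 0.501 by limma). Tested as a gene by its brightest probe set, Spred1 was at 0.57 (95% interval 0.32 to 0.83), a ratio of means of 1.50. It missed the threshold (adjusted p = 0.0783 by limma) unless the replicate number was a block (0.00803). It was between 0.52 and 0.62 without each array in turn, and 0 of those 6 fits called it by limma.

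Spred2 read 2852 and 2854 in sh3 and 2996 and 3070.0 in sh4, against 3339 and 2985 in shNT. The groups overlapped, and the log2 difference was -0.10 (SE 0.10, 95% interval -0.32 to 0.12, adjusted p = 0.752 by limma). All 5 Spred2 probe sets had overlapping groups, with differences of -0.21 to 0.17. Whether the Spred genes differ from each other was not tested.

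Etv4 and Etv5 encode ETS factors that are induced by FGF signalling and carry part of its transcriptional output. Etv4 read 334 and 278 in sh3 and 532 and 393 in sh4, against 149 and 251 in shNT. All knockdown arrays were above both controls, sh3 replicate 2 by a narrow margin. The mean was 384 ± 109 in knockdown and 200.3 ± 72.1 in shNT (SD, n = 4 and 2), with a log2 difference of 0.89 (SE 0.24, 95% interval 0.35 to 1.43, adjusted p = 0.171 by limma; 0.0346 with the replicate block). Between same-numbered arrays it was higher by 1.08 and 0.14 with sh3 and by 1.73 and 0.62 with sh4, and the difference was 0.54 without shNT replicate 1 and 1.24 without shNT replicate 2. The second Etv4 probe set, 1443381_at, read 169 and 151 in sh3 and 388 and 103 in sh4, against 87.6 and 84.5 in shNT (log2 0.94, SE 0.43, adjusted p = 0.594 by limma over all probe sets). It also had no overlap between knockdown and control arrays.

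Etv5 read 9300.1 and 7644 in sh3 and 7519 and 7235 in sh4, against 9031 and 6920 in shNT. The groups overlapped fully, with a log2 difference of -0.0036 (SE 0.13, 95% interval -0.30 to 0.29, adjusted p = 0.994 by limma). At its dimmest probe set, 1420998_at, every knockdown array was below both controls (211 and 218 in sh3, 250.01 and 213 in sh4, against 278 and 279.5 in shNT; log2 -0.31, SE 0.18, adjusted p = 0.702 by limma over all probe sets).

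**Figure D2:**
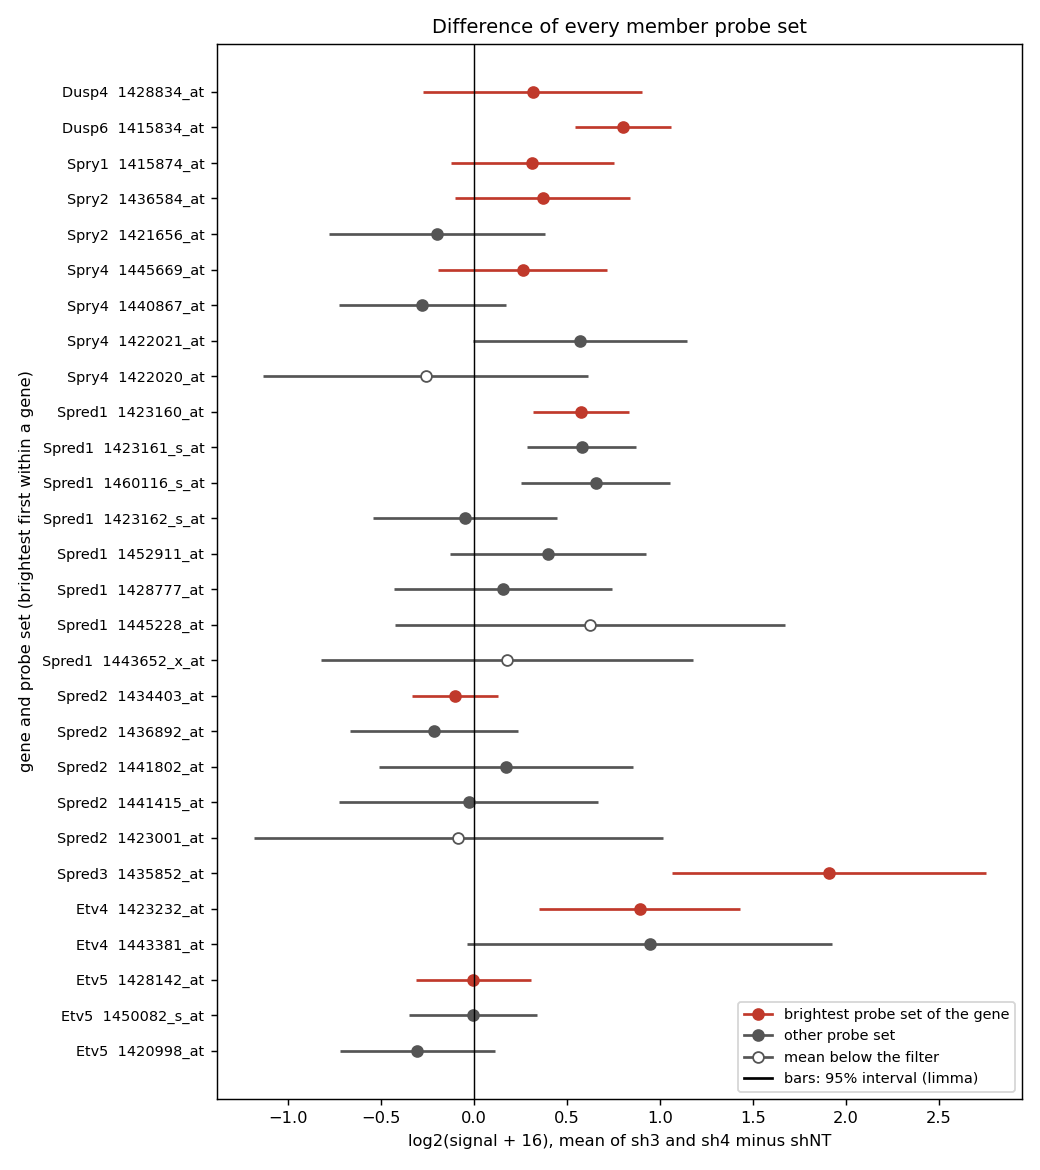
Log2 difference (x axis, mean of sh3 and sh4 minus shNT, log2(signal + 16)) of all 28 member probe sets (y axis), with 95% intervals from limma over all probe sets. Red marks the brightest probe set of a gene and open circles a mean below the filter. The 3 brightest Spred1 probe sets lie at 0.57 to 0.65, while Spry2 and Spry4 have probe sets on both sides of 0.

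Counted over probe sets, 17 of 28 differences were positive. All knockdown arrays lay above both controls at 9 of 28, beside 9.66% of all probe sets, and below both at 2 of 28, beside 7.62%. In the fit over all 45037 probe sets, 0 of 28 passed by limma, beside 0.0422% of all probe sets. An unadjusted p under 0.05 was reached by 6 of 28, beside 8.66% of all probe sets. With the replicate block 5 of 28 passed and all 5 were higher, beside 0.646% of all probe sets that rose and 1.03% called in either direction. These 5 were the Dusp6 and Spred3 probe sets and the 3 brightest of Spred1. Their adjusted p values by limma were 0.00247, 0.0467, 0.0275, 0.0448 and 0.0464 in that order.

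Each hairpin was also set against shNT by itself. Both comparisons share the shNT arrays. In both, Spred3 was tested only through its knockdown arrays. It is in the unadjusted and block counts below for both hairpins, and its part in them is no independent result. With sh3, 0 of 10 genes passed by limma, beside 0.0631% of all genes that rose and 0.071% called in either direction, while 3 of 10 had an unadjusted p under 0.05, beside 9.74% of all genes. Dusp6 was at 0.72 (SE 0.13, adjusted p = 0.0851 by limma), Spred3 at 2.00 (SE 0.38, 0.105) and Spred1 at 0.51 (SE 0.13, 0.242). With the block these 3 passed, beside 2.03% of all genes that rose and 3.43% called in either direction (adjusted p = 0.00225, 0.02 and 0.039 by limma). With sh4, Dusp6 alone rose, 1 of 10 beside 0.284% of all genes that rose and 0.363% called in either direction, by 0.88 (SE 0.13, adjusted p = 0.0341 by limma). This call ended without shNT replicate 2 (0.74, adjusted p = 0.108 by limma), sh3 replicate 1 (0.88, 0.0529), sh3 replicate 2 (0.88, 0.0555), sh4 replicate 1 (0.84, 0.228) or sh4 replicate 2 (0.92, 0.0959). An unadjusted p under 0.05 was reached by 4 of 10, beside 12.1% of all genes. Spred3 was at 1.81 (SE 0.38, adjusted p = 0.102 by limma), Etv4 at 1.17 (SE 0.27, 0.13) and Spred1 at 0.64 (SE 0.13, 0.0923). With the block all 4 passed, beside 2.69% of all genes that rose and 4.9% called in either direction (adjusted p = 0.000667 for Dusp6, 0.0237 for Spred3, 0.0215 for Etv4 and 0.0108 for Spred1 by limma).

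The direct test of sh4 against sh3 called 0 of 10 genes by limma, with 0 at an unadjusted p under 0.05, and 0 of 12684 genes (0% of all), of which 774 had an unadjusted p under 0.05. With the block it called 0 of 10 members, beside 0.418% of all genes. Etv4 had the largest difference of the 10, sh4 minus sh3 at 0.56 (SE 0.27, 95% interval -0.06 to 1.18, adjusted p = 0.827 by limma). For Dusp6 the interval was -0.13 to 0.45, for Spred1 -0.17 to 0.42 and for Spred3 -1.06 to 0.68. These widths do not show that the hairpins act alike.

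**Figure D3:**
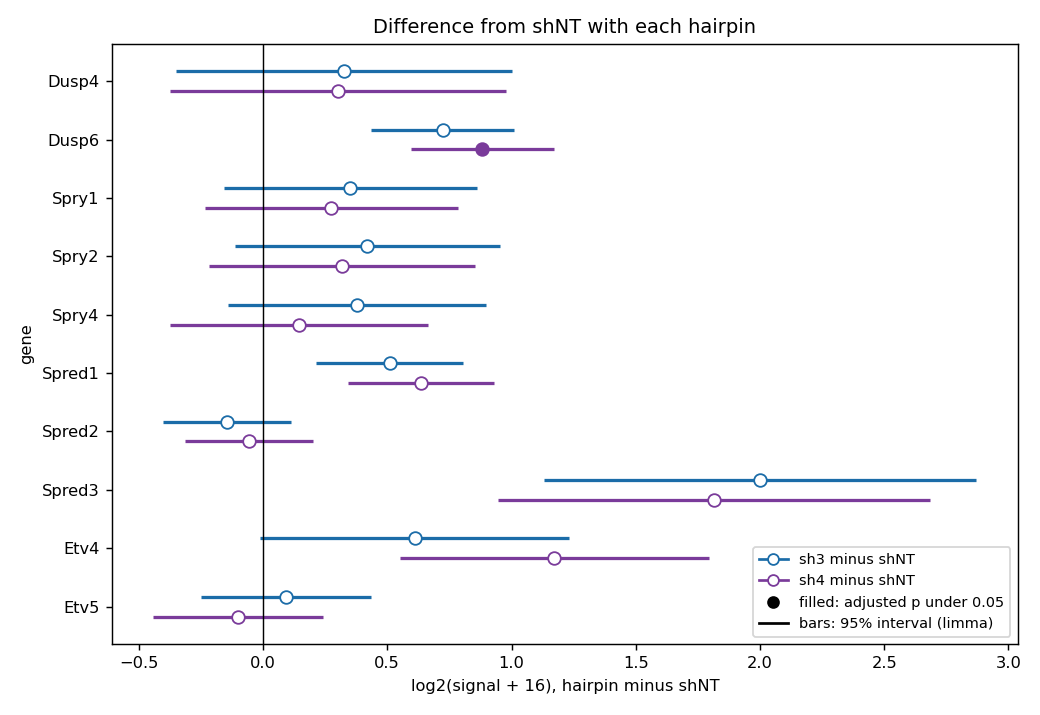
Log2 difference from shNT (x axis, log2(signal + 16)) with sh3 and with sh4 for each gene (y axis), with 95% intervals from limma. Dusp6 with sh4, at 0.88, is the filled point past the threshold, and the sh3 and sh4 intervals overlap for all 10 genes.

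Other genes of the pathway were read from lists. Of the cascade from FGF receptor to ERK, 26 of 35 listed genes were tested, and 0 passed by limma. An unadjusted p under 0.05 was reached by 2 of the 26, beside 12.3% of all genes. The median was 0.04 and 15 were positive. The receptor gene Fgfr2 read 386 and 527 in sh3 and 432 and 480.4 in sh4, against 301 and 219.6 in shNT (log2 0.78, SE 0.20, adjusted p = 0.159 by limma; 0.0284 with the replicate block). All knockdown arrays were above both controls. The RAS relative Rras2 was at 0.33 (SE 0.12), the ERK-activated kinase Rps6ka3 at 0.50 (SE 0.22) and the adaptor Shc1 at 0.34 (SE 0.15).

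Of 21 genes listed as other negative regulators of ERK signalling 20 were tested and 0 passed by limma. An unadjusted p under 0.05 was reached by 3 of the 20, near the share of 12.3% of all genes. The median was 0.07 and 11 were positive. With the block 2 of the list rose, Flrt3 and Dusp5, beside 3.33% of all genes. Flrt3 was listed here but is a membrane protein of the FGF receptor complex and not an established ERK inhibitor. It read 135 and 311 in sh3 and 289 and 329 in sh4, against 128 and 117 in shNT (log2 0.96, SE 0.30, adjusted p = 0.233 by limma, and 0.042 with the replicate block). Dusp5, a nuclear ERK phosphatase, read 352 and 610.1 in sh3 and 253 and 603 in sh4, against 139 and 346 in shNT (log2 0.90, SE 0.41, adjusted p = 0.424 by limma; 0.00766 with the replicate block). Its groups overlapped and, as with Dusp4, replicate 2 was the higher array in each. Dusp9, another cytoplasmic ERK phosphatase, was at -0.51 (SE 0.17, adjusted p = 0.262 by limma) and Dusp16, which acts mainly on JNK and p38, at 0.35 (SE 0.12, 0.281).

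Among other ETS factors, 14 of 20 listed genes were tested, the median was -0.03 and 7 were positive. Ets1 rose, reading 276 and 506 in sh3 and 366 and 459 in sh4, against 134 and 119.9 in shNT (log2 1.51, SE 0.25, adjusted p = 0.04 by limma). Every knockdown array was above both controls. The call ended without shNT replicates 1 and 2 (log2 1.59 and 1.44, adjusted p = 0.101 and 0.161 by limma), sh3 replicate 2 (1.30, 0.0872) and sh4 replicates 1 and 2 (1.59 and 1.43, 0.0915 and 0.0851), each left out in turn. Gabpa, a ubiquitous ETS factor, was at -0.28 (SE 0.13), Elf2 at -0.23 (SE 0.14) and the repressor Etv6 at 0.23 (SE 0.15), and none of the 3 passed.

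Of 26 immediate early and delayed ERK target genes 24 were tested, with a median of 0.28, 19 positive and 5 negative. The negative genes were Junb (-0.04), Jund (-0.09), Ier2 (-0.10), Nr4a1 (-0.03) and Mcl1 (-0.30). Fos was at 0.09, and Egr1 was at 0.45 with sh3 and -0.07 with sh4. The rising genes named below have the smallest p of the list and do not stand for all of it. An unadjusted p under 0.05 was reached by 9 of the 24, beside 12.3% of all genes. All knockdown arrays lay above both controls in 7, beside 11.2% of all genes, and below both in 1, beside 9.54%. Jun, a component of AP-1, rose, reading 724 and 845 in sh3 and 795 and 961 in sh4, against 430.3 and 486 in shNT (log2 0.83, SE 0.15, adjusted p = 0.0482 by limma). The knockdown arrays did not overlap the controls. The call ended without each array in turn (log2 0.75 to 0.92, adjusted p = 0.0897 to 0.17 by limma). Phlda1, an early response gene, was at 1.02 (SE 0.26, adjusted p = 0.162 by limma), the matricellular gene Cyr61 at 0.69 (SE 0.15, 0.0994) and Ier5 at 0.57 (SE 0.19, 0.275). With the block 6 of the 24 rose, beside 3.33% of all genes. Jun, Phlda1 and Cyr61 were among the 6 (adjusted p = 0.00187, 0.00112 and 0.00232 by limma). With the block 1 gene of the cascade list (Fgfr2) and 1 other ETS factor (Ets1, adjusted p = 0.00144 by limma) rose, beside the same 3.33%.

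**Figure D4:**
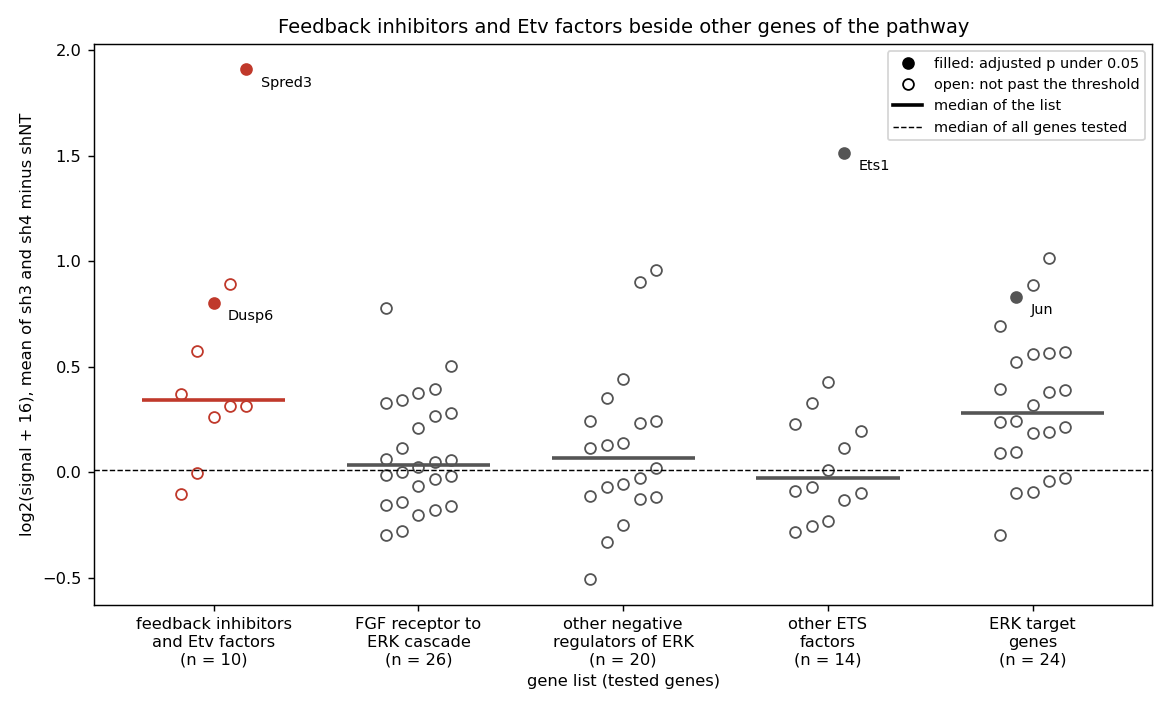
Log2 difference (y axis, mean of sh3 and sh4 minus shNT, log2(signal + 16)) of each tested gene in 5 lists (x axis). Filled points passed an adjusted p of 0.05 over all genes, bars are list medians and the dashed line is the median of all genes. Dusp6, Spred3, Ets1 and Jun are the filled points, and the medians run from 0.34 for the feedback inhibitors and Etv factors to -0.03 for the other ETS factors.

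Dusp6 had the smallest p of the members. The genes whose pattern over the 6 arrays was nearest to it, by the root mean square difference of log2 values taken relative to each gene's own shNT mean, were Arap3, a regulator of small GTPases (0.08), Idi1, an enzyme of sterol synthesis (0.08), and Hhat, the acyltransferase of Hedgehog proteins (0.09). Idi1 read 3105 and 2796 in sh3 and 3257 and 2886 in sh4, against 1983 and 1419 in shNT, and rose by 0.84 (SE 0.14, adjusted p = 0.0447 by limma). Arap3 was at 0.82 (SE 0.17, adjusted p = 0.101 by limma) and Hhat at 0.80 (SE 0.30, 0.32). All knockdown arrays of the 3 genes were above both controls. Both shNT signals of Hhat (38.7 and 23.6) were below the filter signal of 40.1, so its likeness rests on a dim probe set.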

How the data were processed

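The values are signal intensity per probe set on a linear scale, which the authors made with MAS5, as the submitters' processing notes say, without a version in the sources used here. The deposited intensities had a mean of 496 to 497 over the middle of each array, so they had been scaled, and were used with no further background correction. Of 45101 probe sets 64 were controls, and 34945 had 1 symbol in the platform annotation, 932 several and 9160 none; 34741 of the first kind matched a RefSeq gene by Entrez ID. No positions of probe sets were used.

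Signals were taken as log2(signal + 16), which understates changes of dim genes. Each gene was represented by its brightest probe set, and was tested where its mean log2 value reached the 40th percentile of all probe sets (signal 40.1). In R 4.3.3, limma 3.58.1 was run on 6 arrays with 3 group means with an intensity trend (residual df 3, prior df 5.96), 2-sided, with Benjamini-Hochberg adjustment over all genes. All 28 probe sets were also tested in a fit over all 45037. The number of arrays limits the precision.

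Arrays with the same replicate number deviated from their groups together (r = 0.223 to 0.302 across genes for the 3 pairs of groups), so the replicate numbers, which the titles give without naming a shared day, were taken as pairs in the block. Members, lists and tests were chosen with earlier results of these data known. Each member is named, with Jmjd1c, the 4 genes of smallest p per list and the 3 genes most like the member of smallest p. Some listed genes were not used here. In all, 17 alternatives were tried. Promoters are RefSeq's; the motifs were chosen after the windows were read.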

Additional observations from a re-analysis of the deposited data

How the results depend on the processing

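Of the 10 members, 2 were called in the knockdown mean, and the count was 1 with a pseudocount of 1, without the filter, with a 60th percentile filter (Spred3 untested), with quantile normalization, with median centring and leaving out cross-hybridizing probe sets, Spred3 being the lost call. It was 0 without an intensity trend, 4 with the replicate block and 0 to 1 when 1 array was left out. For sh3 the count of 0 was 3 with the block. For sh4 the count of 1 was 0 without the filter, without a trend and in all but 1 of the 6 fits that left out 1 array (0 to 1), and 4 with the block. Of the 28 member probe sets 5 were called with the block. Over all genes the 92 calls became 36 without the filter, 34 averaging each gene's probe sets, 59 leaving out cross-hybridizing probe sets, 0 by limma without a trend (against 1559 genes with an unadjusted p under 0.05 in the fit with a trend), 710 with the block and 4 to 43 with 1 array left out. With the block the cascade list had 1 call, the list of other negative regulators 2 (Flrt3 and Dusp5) and the ERK targets 6, beside 5.6% of all genes. The 1 call among other ETS factors was 0 without the filter, with median centring, with the mean of probe sets and without a trend, and 0 to 1 with 1 array left out. The 1 call among ERK targets was 0 with a pseudocount of 1, without the filter, with quantile normalization, with median centring, leaving out cross-hybridizing probe sets, without a trend and without each array in turn. The differences of Dusp4, Spry1 and Etv5 changed sign: Dusp4, 0.31 over all arrays, was at -0.011 without shNT replicate 1 (range -0.011 to 0.64 with 1 array left out), Spry1, also 0.31, at -0.018 without shNT replicate 2 (-0.018 to 0.64), and Etv5 at 0.0063 with quantile normalization, 0.19 without shNT replicate 1, 0.067 without sh3 replicate 2 and 0.010 without sh4 replicate 2 (-0.20 to 0.19). Dusp6, Spry2, Spry4, Spred1, Spred2, Spred3 and Etv4 kept their sign in every alternative that tested them. The replicate block changed no other call among the members and pathway lists. The causes were not tested. The block rests on a pairing that the labels do not state, and signal near background limits Spred3 most.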
